A study of Mus musculus with 12 samples.

Results

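Transcript levels of 10 genes of the MHC class I antigen presentation pathway were followed in mouse melanoma tumours under 4 treatments. The genes were B2m, H2-K1, H2-D1, Tap1, Tap2, Tapbp, Psmb8, Psmb9, Psmb10 and Nlrc5, picked by gene name from a table of 50600 genes. All 10 were found, and all 10 passed the filter on low values with which 16993 genes were tested. The tumours were grown from 50000 B16F10 cells, a melanoma line of C57Bl/6 origin, injected under the skin of C57Bl/6 mice whose genotype is labelled Wild. Vehicle mice received no drug, alisertib mice 25 mg/kg of an inhibitor of Aurora kinase A, navitoclax mice 100 mg/kg of an inhibitor of BCL-2, BCL-xL and BCL-w, and combination mice both drugs at these doses. All were dosed by oral gavage once a day for 11 days, and 3 libraries were sequenced per group. The drugs were given to the whole animal, so tumour, host immune and stromal cells were all exposed, and each library measured the RNA of the whole tissue. In such bulk samples, fewer cells of a type and less RNA per cell cannot be told apart.

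Class I molecules display peptides from inside the cell to CD8+ T cells. Proteins are cut by the proteasome, in which the immunoproteasome subunits encoded by Psmb8, Psmb9 and Psmb10 can take the places of the constitutive catalytic subunits, the peptides are pumped into the endoplasmic reticulum by the transporter made of TAP1 and TAP2, and tapasin (Tapbp) helps to load them onto a heavy chain (H2-K1 or H2-D1) paired with beta-2 microglobulin (B2m). Interferon gamma induces nearly every gene of this pathway, and the transactivator NLRC5 acts at class I promoters. B16F10 cells in culture are known for low class I levels that interferon gamma raises.

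Between 26.8 M and 36.7 M reads (M, mega) per library were assigned to genes. In vehicle 2, 63.3% of them fell on 2 ribosomal RNA loci, and in combination 3 the share was 73.7%, against 13.8% to 35.4% in the other 10 libraries. This left 9.86 M and 7.08 M reads for all other genes in those 2 libraries, against 21.9 M to 27.6 M elsewhere. The values are normalized counts, in which 3 reads were worth 2.29 to 10.9, and the lowest value of any of the 10 genes was 46.7. The tissue label was checked with 8 melanocyte markers (Mitf, Dct, Tyr, Tyrp1, Pmel, Mlana, Sox10 and Slc45a2), which summed to between 435432 and 688519 normalized counts in every library. Skeletal muscle markers summed to 122033 in navitoclax 1 and to at most 940 elsewhere.

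Of the 10 genes, 7 lie on chromosome 17 (GRCm38, counted from 1). From low to high coordinate these are Tapbp at chr17:33915899-33929292, H2-K1 at chr17:33996017-34000347, Psmb9 at chr17:34181987-34187764, Tap1 at chr17:34187553-34197225, Psmb8 at chr17:34197721-34201454, Tap2 at chr17:34203527-34216321 and H2-D1 at chr17:35262730-35267499. B2m lies at chr2:122147686-122153083, Nlrc5 at chr8:94434356-94527272 and Psmb10 at chr8:105935735-105938444. Psmb9 and H2-K1 are read from the minus strand, as is Psmb10, and the other genes from the plus strand. Psmb9 and Tap1 overlap head to head at their starts, and B2m, Tap2, Tapbp, Psmb8, Psmb10 and Nlrc5 also overlap at least 1 annotated gene on the other strand, so reads there could be assigned to the wrong partner where strand was not used. Sequence shared with other genes was largest for the heavy chains: 9.63% of the 50-base stretches of H2-K1 transcripts and 12.8% of those of H2-D1 also occur in transcripts of other genes, led by H2-Q10 with 5.18% and H2-Q1 with 5.87%. Counts of the heavy chains are uncertain to that extent. No stretch was shared for B2m, Psmb9, Psmb10 or Nlrc5.

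Promoter sequences are shown for 5 of the genes because 3 of them share an arrangement of motifs and the other two share 1 short interval. RefSeq (GRCm38.p6) gave windows from 250 bases before to 50 bases after the start for 8 of the 10 genes, with 2 starts for H2-K1. The first sequence is the 225-base interval between the RefSeq starts of Psmb9 and Tap1, chr17:34187331-34187555 on the plus strand, from which Tap1 is read to the right and Psmb9 to the left. The other three are the 250 bases before the start of B2m (chr2:122147437-122147686, plus strand), H2-K1 (chr17:34000348-34000597, minus strand) and H2-D1 (chr17:35262844-35263093, plus strand). All are written 5′ to 3′, and capitals mark matches to GAANNGAAA, CCAAT or TGACG on either strand. RefSeq and the GENCODE coordinates given above place some starts differently. By the GENCODE coordinates the first interval lies within Psmb9, and the H2-D1 stretch lies within H2-D1.
Tap1-Psmb9: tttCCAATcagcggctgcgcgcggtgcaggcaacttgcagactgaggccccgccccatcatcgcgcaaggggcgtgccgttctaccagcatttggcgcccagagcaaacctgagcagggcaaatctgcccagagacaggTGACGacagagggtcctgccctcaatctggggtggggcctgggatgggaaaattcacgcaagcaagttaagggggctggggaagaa
B2m: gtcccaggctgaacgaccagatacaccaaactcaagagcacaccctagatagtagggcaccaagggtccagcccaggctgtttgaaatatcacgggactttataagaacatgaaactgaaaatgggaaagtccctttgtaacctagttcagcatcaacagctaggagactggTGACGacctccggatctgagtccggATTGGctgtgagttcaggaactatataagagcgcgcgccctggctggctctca
H2-K1: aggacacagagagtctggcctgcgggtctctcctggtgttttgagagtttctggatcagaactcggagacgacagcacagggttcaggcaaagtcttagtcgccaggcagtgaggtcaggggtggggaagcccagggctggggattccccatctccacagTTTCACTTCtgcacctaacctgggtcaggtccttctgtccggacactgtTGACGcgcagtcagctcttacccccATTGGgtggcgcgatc
H2-D1: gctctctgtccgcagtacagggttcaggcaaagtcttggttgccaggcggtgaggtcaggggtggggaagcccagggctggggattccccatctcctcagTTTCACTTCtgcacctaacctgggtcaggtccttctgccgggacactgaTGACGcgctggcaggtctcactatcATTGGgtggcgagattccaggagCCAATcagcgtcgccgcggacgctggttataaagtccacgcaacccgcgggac

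The motifs searched are letters taken from known elements, and a match is only a match of letters. GAANNGAAA, a spelling of letters taken from an interferon response element, occurred in 7.52% of 32851 RefSeq windows of 300 bases. Among the 8 genes with a window it occurred in H2-K1 and H2-D1, where it reads TTTCACTTC on the strand shown. Spellings with a wider gap between GAA and GAAA were not searched for. The B2m stretch printed above holds such letters, gaaactgaaa, left unmarked. The lack of a match therefore does not show that B2m or another gene lacks the element. CCAAT occurred in 37.4% of windows and in 6 of the 8 genes, and TGACG, the core of a cyclic AMP response element, in 20.8% of windows and in 5 of the 8. B2m, H2-K1 and H2-D1 each held TGACG followed after 20 bases by ATTGG, which is CCAAT on the other strand. This spaced pair, searched for after the matches were seen, was found in 31 of the 32851 windows (0.0944%). In B2m the TGACG runs from base -78 to base -74 and the ATTGG from -53 to -49 relative to the start. In H2-D1 the TGACG begins at -101 and the ATTGG at -76, and at the first H2-K1 start they begin at -41 and -16. Elements of these kinds make up the module through which NLRC5 is recruited to class I promoters. No factor's binding was measured here.

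Across vehicle tumours the steady level per kilobase of annotated exon was highest for B2m, at 4530 ± 3468 normalized counts per kb (SD, n = 3), followed by H2-K1 at 2977 ± 939 and H2-D1 at 2719 ± 867. Psmb10 stood at 961 ± 401 and Tapbp at 743 ± 324 normalized counts per kb. Tap2 (182 ± 64.7), Tap1 (158 ± 40.7), Nlrc5 (126 ± 15.7) and Psmb8 (115 ± 55.8) followed, and Psmb9 was lowest at 37.4 ± 12.9 on the same scale. Neighbours in this order had vehicle libraries that did not overlap at 3 steps only: H2-D1 above Psmb10, Tapbp above Tap2, and Psmb8 above Psmb9. By these means the display molecules were at the top, and 2 of the immunoproteasome subunits at the bottom. The order did not hold in every library. In vehicle 2, B2m stood at 869 normalized counts per kb, below Psmb10 at 1424, and Psmb8 overlapped Nlrc5.

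**Figure D1:**
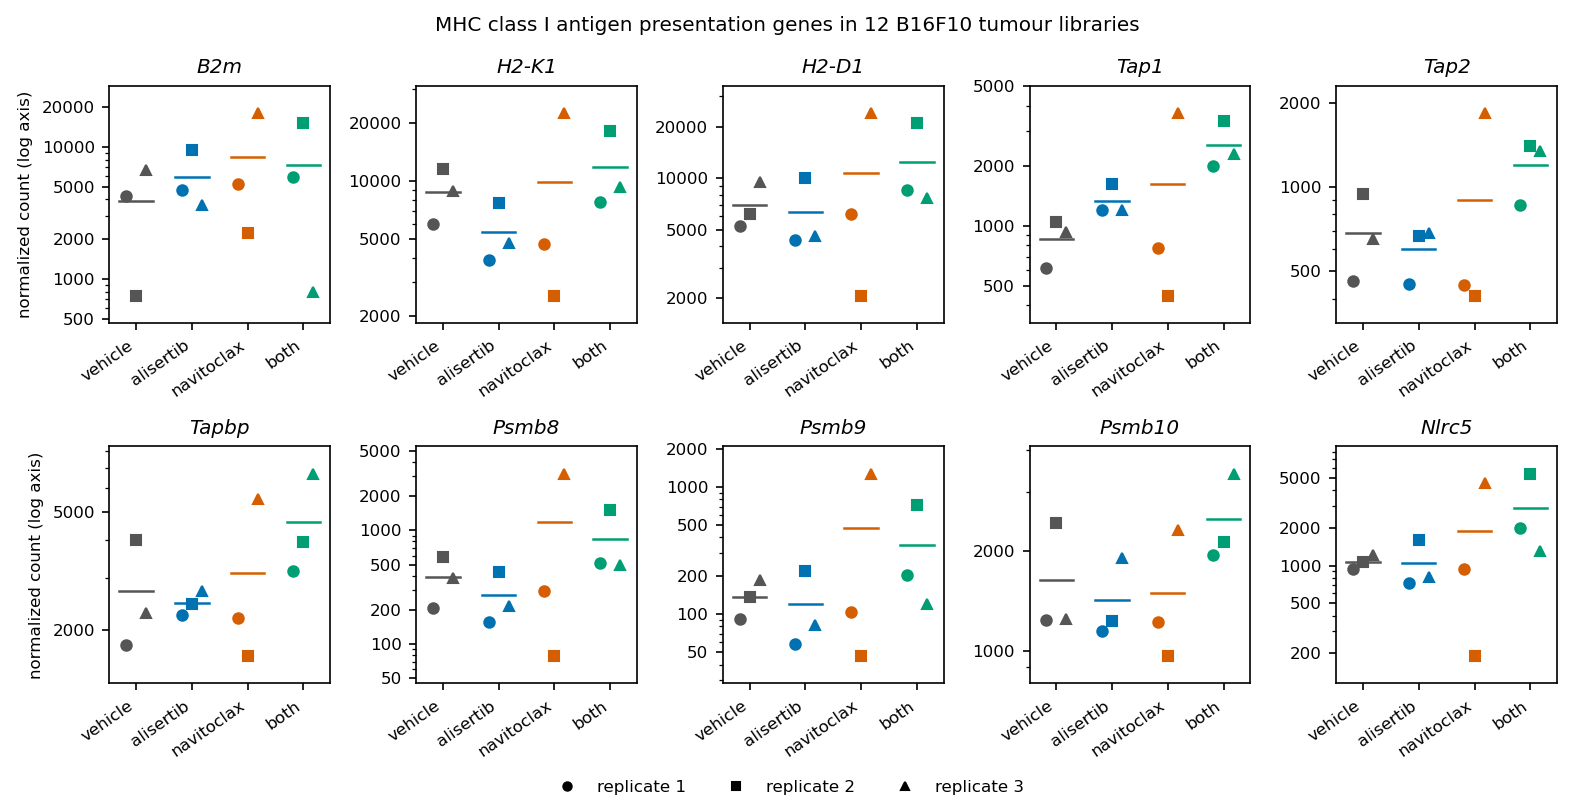
Normalized counts (log axis) of each of the 10 class I genes in the 12 libraries by treatment group. Points are libraries, with the marker giving the replicate, and horizontal lines are group means; navitoclax 3 and combination 2 sit high and navitoclax 2 low in most panels, while B2m is lowest in vehicle 2 and combination 3.

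Among the display molecules, H2-K1, a classical heavy chain, measured 5954, 11467 and 8823 normalized counts in the vehicle libraries, 3885, 7663 and 4799 with alisertib, 4703, 2549 and 22359.6 with navitoclax, and 7756, 18212 and 9293 with both drugs (replicates 1, 2 and 3 in turn, here and below). Navitoclax held both the lowest and the highest H2-K1 library of the series, 8.77-fold apart. H2-D1, the other classical heavy chain, measured 5293, 6207 and 9540.1 in vehicle, 4387, 10058 and 4576 with alisertib, 6218, 2065 and 23917 with navitoclax, and 8498, 21009.7 and 7716 with both drugs. Each arm overlapped the vehicle libraries for both heavy chains, and H2-D1 over H2-K1 stayed between 0.541 and 1.32 in all 12 libraries.

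B2m, the light chain that every class I molecule needs, measured 4260.5, 747 and 6679 normalized counts in vehicle, 4735, 9485 and 3638 with alisertib, 5189, 2227 and 17888 with navitoclax, and 5887, 15128 and 803 with both drugs. Its lowest values, 747 and 803, came from the 2 libraries rich in ribosomal RNA, where the heavy chains were not low. B2m over H2-K1 was 0.0652 in vehicle 2 and 0.0864 in combination 3, against 0.716 to 1.24 in the other 10 libraries, and B2m over H2-D1 was 0.120 and 0.104 against 0.693 to 1.08. In the same 2 libraries Psmb10 over its constitutive counterpart Psmb7 was highest, at 1.18 and 2.27, against 0.360 to 0.863 in the other 10. The 6 fibroblast markers summed to 113088 and 174921 normalized counts in these libraries and to 7066 to 48876 in the others. Nearly all of this was the collagen genes Col1a1, Col1a2 and Col3a1, while Dcn, at 4.90 and 21.7, and Lum and Pdgfra were not highest there. The part of the ribosomal RNA share and of the collagen transcripts in the B2m and Psmb10 values was not tested.

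**Figure D2:**
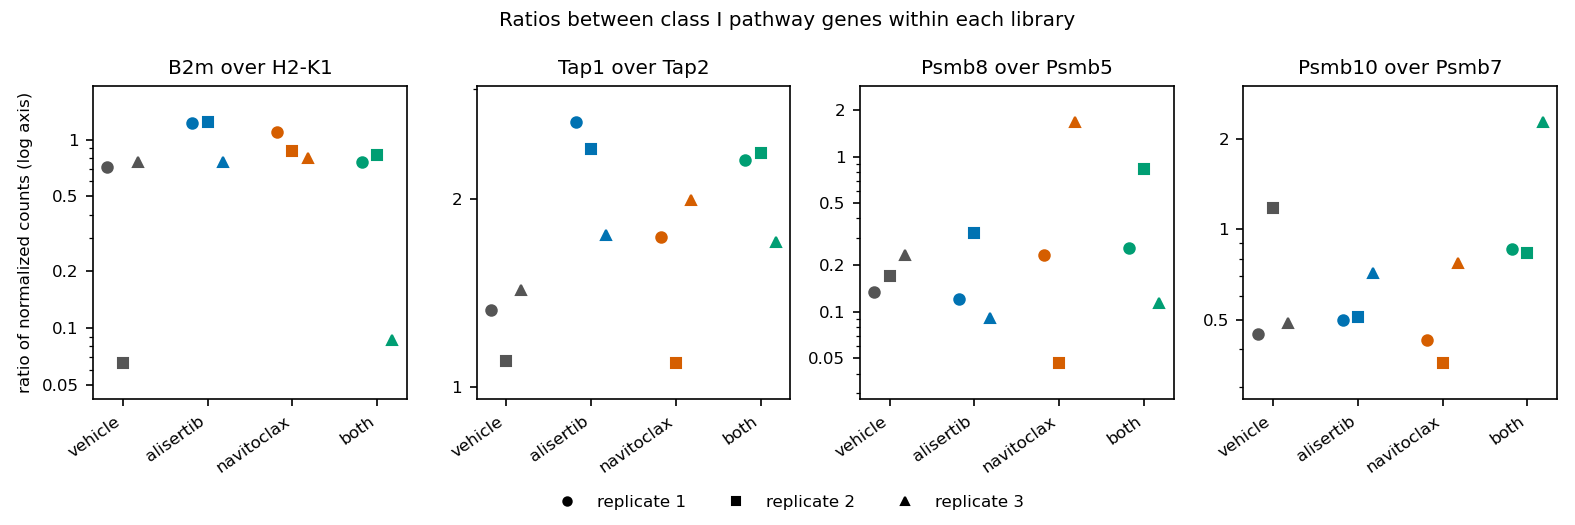
Ratios of normalized counts (log axis) of B2m over H2-K1, Tap1 over Tap2, Psmb8 over Psmb5 and Psmb10 over Psmb7 in each of the 12 libraries by treatment group. B2m over H2-K1 is 0.0652 in vehicle 2 and 0.0864 in combination 3 against at least 0.716 elsewhere, and Psmb8 over Psmb5 runs from 0.0467 in navitoclax 2 to 1.67 in navitoclax 3.

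Of the peptide loading genes, Tap1 measured 614, 1044 and 932 normalized counts in vehicle, 1196, 1615 and 1201 with alisertib, 775, 448 and 3661 with navitoclax, and 1989, 3335 and 2294 with both drugs. The alisertib and combination libraries all lay above all vehicle libraries, while the navitoclax libraries lay on both sides of them. Tap2, the other subunit of the transporter, measured 463, 948 and 652 in vehicle, 450.2, 671 and 686 with alisertib, 446, 409.6 and 1838 with navitoclax, and 862, 1407 and 1343 with both drugs, and every arm overlapped vehicle. Tap1 over Tap2 was 1.10 to 1.43 in vehicle, 1.75 to 2.66 with alisertib, 1.09 to 1.99 with navitoclax and 1.71 to 2.37 with both drugs. These ratios were not tested.

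Tapbp, encoding tapasin, measured 1779, 4021 and 2289 normalized counts in vehicle, 2242, 2439 and 2695 with alisertib, 2189.8, 1637 and 5527 with navitoclax, and 3168, 3964 and 6699 with both drugs. It was highest in combination 3, and its whole range was 4.09-fold, with every arm overlapping vehicle.

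Among the immunoproteasome subunits, Psmb8, which replaces the product of Psmb5, measured 206, 583 and 382 normalized counts in vehicle, 156, 430.2 and 216 with alisertib, 293, 78.3 and 3167 with navitoclax, and 519.5, 1522 and 492 with both drugs. Navitoclax 3 stood 40.5-fold above navitoclax 2, the widest spread of the 10 genes. Psmb8 over Psmb5 ran from 0.0467 in navitoclax 2 to 1.67 in navitoclax 3, and was 0.829 in combination 2. Psmb9, which replaces the product of Psmb6, measured 90.9, 135 and 185 in vehicle, 57.9, 219 and 82.3 with alisertib, 104, 46.7 and 1270.3 with navitoclax, and 202, 720.4 and 119 with both drugs. Psmb9 over Psmb6 ran from 0.0195 in navitoclax 2 to 0.446 in navitoclax 3, with 0.277 in combination 2. The RefSeq starts of Psmb9 and Tap1 lie at either end of the 225-base interval printed above. Tap1 over Psmb9 ran from 2.88 in navitoclax 3 to 20.7 in alisertib 1, and it was 19.2 in combination 3.

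Psmb10, which replaces the product of Psmb7, measured 1239, 2428 and 1248 normalized counts in vehicle, 1147, 1236 and 1901 with alisertib, 1223, 969 and 2304 with navitoclax, and 1948, 2124 and 3409 with both drugs. Its spread, 3.52-fold, was the narrowest of the 10 genes, and its highest library was combination 3. Nlrc5, the class I transactivator, measured 947, 1061 and 1213 in vehicle, 730.2, 1596 and 812 with alisertib, 937, 191 and 4554 with navitoclax, and 1975, 5390.2 and 1306 with both drugs. The 3 combination libraries lay above all 3 vehicle libraries, with combination 3 close to the highest of them, and the 2 single-drug arms overlapped vehicle.

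The comparison of each arm with vehicle asks how the drugs, alone and together, changed the pathway. It was made with limma on log2(value + 2), with p-values adjusted by the Benjamini-Hochberg method over all 16993 genes and a threshold of 0.05, so each fold below is on that scale. With alisertib, 0 of the 10 genes passed, against 0.871% of all genes tested. With navitoclax 0 of 10 passed, against 0.0647%, and with both drugs 0 of 10, against 2.54%. At an unadjusted p under 0.05 the counts of the 10 genes were 0, 0 and 1. Over all 16993 genes these counts were 2213, 1083 and 2875. The other tools also called 0 of the 10 in each of these comparisons. With alisertib, edgeR with TMM factors called 0.842% of all genes, edgeR with RLE factors 0.794%, voom with quality weights 7.3% and DESeq2 4.25%. With navitoclax these shares were 0.0471%, 0.0647%, 0.224% and 0.514%, and with both drugs 2.02%, 2.07%, 12.4% and 7.36%. Libraries that did not overlap vehicle and lay above it were found for 1 of 10 genes with alisertib (10.7% of all genes), 0 with navitoclax (6.5%) and 2 with both drugs (9.73%). These shares are too close to those of all genes, for a list of 10, to be read as a result about the pathway.

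All 10 estimates were above 0 with both drugs, with a median log2 change of 0.81 against -0.01 over all genes tested. With alisertib 2 of 10 were above 0 (median -0.16 against 0.01), and with navitoclax 6 of 10 (median 0.08 against 0.01). The 3 comparisons share the vehicle libraries. Most of the 10 genes also varied together across the libraries, so the signs of their estimates are not separate observations. Tap1 had the largest estimate with both drugs, a log2 change of 1.55 ± 0.59 (SE, 3 libraries per group) with a 95% interval of 0.25 to 2.86 and an adjusted p of 0.204 in limma. Nlrc5 followed at 1.17 ± 0.90 (adjusted p = 0.583) and Psmb8 at 1.02 ± 1.06 (adjusted p = 0.705). H2-K1 had the smallest estimate, 0.37 ± 0.66, whose 95% interval of -1.07 to 1.82 covers changes from 0.477-fold to 3.52-fold. The intervals therefore do not show that the levels were alike. For B2m the estimate was 0.58 ± 1.11, and it turned to -0.36 without vehicle 2 and to 1.77 without combination 3, the 2 libraries in which B2m was low.

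**Figure D3:**
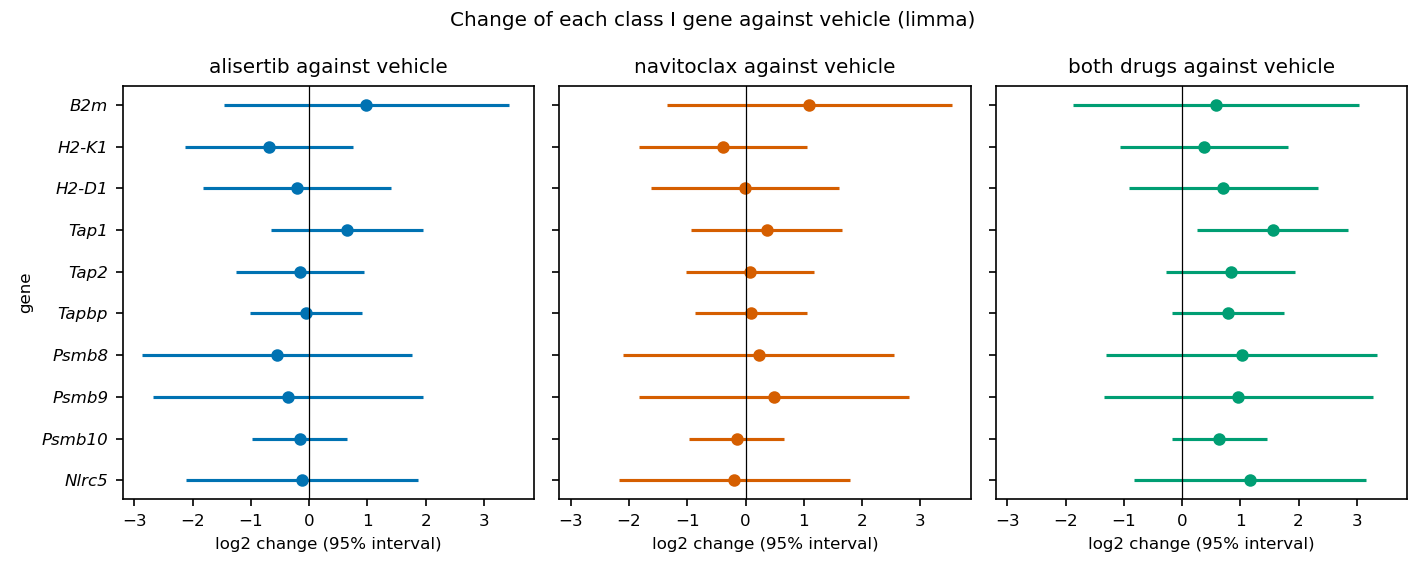
Log2 change of each class I gene against vehicle, in the limma model over 12 libraries, for alisertib, navitoclax and both drugs. Points are estimates and lines their 95% intervals; every interval crosses 0 except that of Tap1 with both drugs, 0.25 to 2.86, whose adjusted p was 0.204.

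The main effect of a drug averages its change in the absence and in the presence of the second drug, and the interaction asks whether the drugs together differ from the sum of their single effects. For the main effect of alisertib 0 of the 10 genes passed, against 4.5% of all genes, and all 10 estimates were above 0 (median 0.28), though the median was -0.03 without navitoclax 2. For navitoclax 0 passed, against 0% of all genes, and again all 10 estimates were above 0 (median 0.50). That median was 0.16 without navitoclax 3 and -0.12 without navitoclax 3 and combination 2. For the interaction 0 passed, against 0.00588%, and 9 of 10 estimates were above 0 (median 0.92), the exception being B2m. Both drugs against alisertib alone gave 0 of 10, against 0%, and both drugs against navitoclax alone gave 0 of 10, against 1.19%. Over all 8 comparisons, 65 of 80 estimates were above 0, none passed the threshold in limma, and 2 had an unadjusted p under 0.05, both of Tap1. These 2 were both drugs against vehicle and the main effect of alisertib. In them 2875 and 3168 of all 16993 genes had such a p. The 8 comparisons reuse the same 4 groups, so the 80 estimates are not separate observations.

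Tap1 was the member whose call depended on a library. Without navitoclax 3, in which Tap1 was highest, the log2 change with both drugs against vehicle was 1.55 ± 0.29 with an adjusted p of 0.0266 in limma, against 1.84% of all genes then called. The change with both drugs against navitoclax alone was then 2.07 ± 0.32 (adjusted p = 0.0238, 0.431% of genes called), against 1.19 ± 0.59 (adjusted p = 0.306) with all libraries. The main effect of alisertib on Tap1 was 1.36 ± 0.21 (adjusted p = 0.0112, 3.43% of genes called), against 0.92 ± 0.42 (adjusted p = 0.267) with all libraries. The navitoclax mean then rests on 2 libraries, and the spread shared by all groups is estimated without the library farthest from its group. Leaving out combination 2 as well, a choice made after seeing the data, gave 1.34 ± 0.30 with both drugs against vehicle (adjusted p = 0.0796, 0.875% of genes called), 1.86 ± 0.32 against navitoclax (adjusted p = 0.0492, 0.542%) and 1.25 ± 0.21 for the main effect of alisertib (adjusted p = 0.0200, 2.67%). With edgeR and TMM factors the estimates against navitoclax and for the main effect were smaller, at 0.65 and 0.65, and with DESeq2 they were 0.65 and 0.64. Over all alternatives the adjusted p of these 3 comparisons ran from 0.0266 to 0.495, from 0.0238 to 0.587 and from 0.0112 to 0.477.

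Libraries of the same treatment differed widely in the class I genes. Navitoclax 3 was the highest library for 7 of the 10 genes and among the top 2 for 9, combination 2 was among the top 2 for 8, and navitoclax 2 was the lowest for 9. Against each gene's own median over the 12 libraries, the median log2 deviation of the 10 genes was 1.70 in navitoclax 3, 1.54 in combination 2 and -1.41 in navitoclax 2. The other 9 libraries lay between -0.61 and 0.34. Navitoclax 3 exceeded navitoclax 2 by 40.5-fold for Psmb8, 27.2-fold for Psmb9, 23.9-fold for Nlrc5, 11.6-fold for H2-D1, 8.77-fold for H2-K1, 8.18-fold for Tap1 and 8.03-fold for B2m. For Tap2 the excess was 4.49-fold, for Tapbp 3.38-fold and for Psmb10 2.38-fold. The same treatment label thus covered the lowest and the highest class I libraries.

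**Figure D4:**
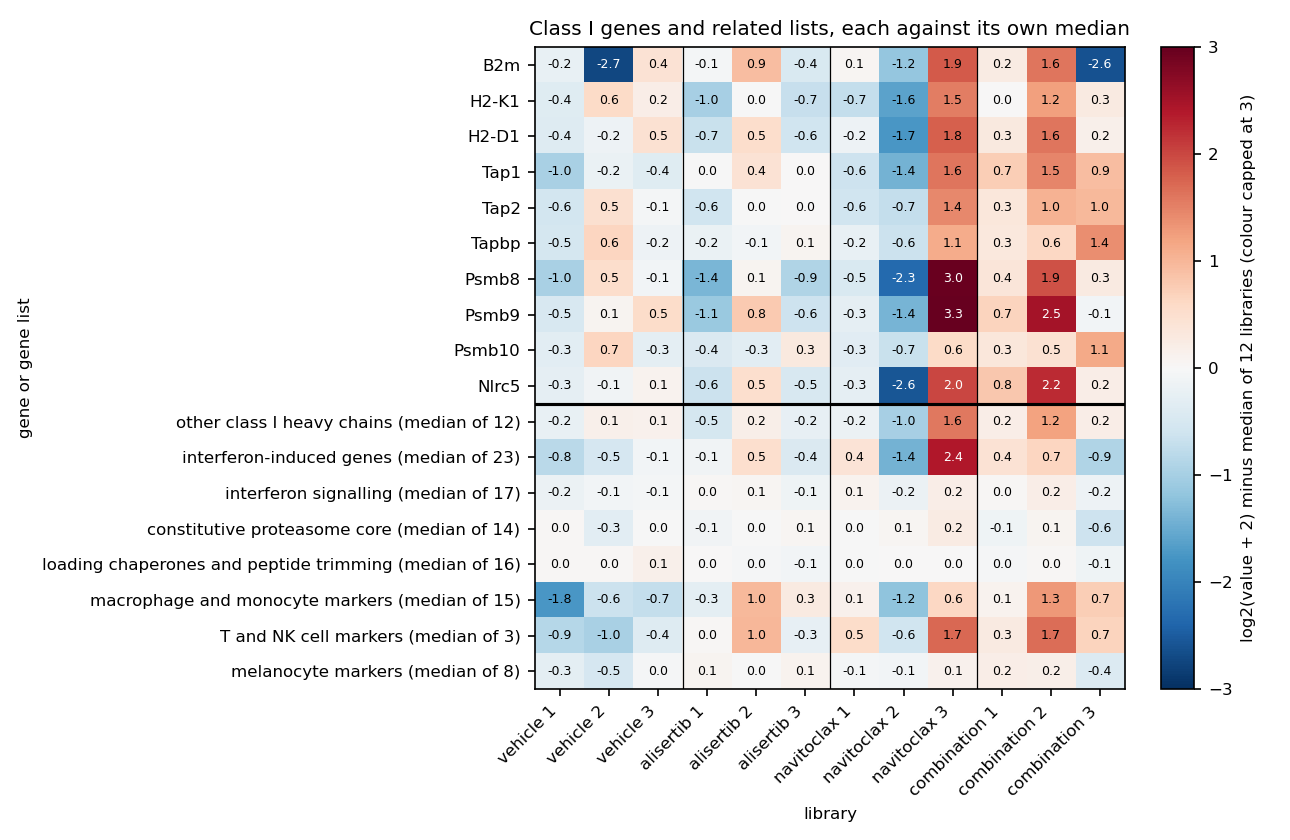
Log2(value + 2) of each class I gene, and the median of related gene lists, in the 12 libraries, each as the deviation from its own median over the libraries (colour scale capped at 3). Navitoclax 3 and combination 2 are high and navitoclax 2 is low for the class I genes, the other class I heavy chains and the interferon-induced genes, while the medians of the constitutive proteasome core and the melanocyte markers lie between -0.61 and 0.24.

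Each of the 15 markers of T and NK cells was highest in navitoclax 3 or combination 2. The share of all genes highest in these 2 libraries was not counted. Only 3 of the 15 passed the filter on low values, and some maxima were a few reads. Ncr1 peaked at 3.97 in navitoclax 3 and Cd8b1 at 7.66 in combination 2, where 3 reads are worth 2.38 and 2.55. Much of the sum of the 15 was Ptprc, a gene of all leukocytes. It stood at 328 and 318 normalized counts in navitoclax 3 and combination 2, at 274 in alisertib 2 and at 51.4 in navitoclax 2. The other 14 summed to 171 in navitoclax 3 and 192 in combination 2, to 11.1 in navitoclax 2, and to between 18.7 and 69.5 in the other 9 libraries. With Ptprc the sums ranged from 73.5 to 99.7 in vehicle, 101 to 343 with alisertib, 62.5 to 499 with navitoclax and 130.3 to 510.1 with both drugs. Of the 15 markers, 9 were at 0 in navitoclax 2, among them Cd3e, Cd3d, Cd3g and Trbc2 of the T cell receptor complex, the coreceptor genes Cd8a and Cd8b1 and the NK receptor gene Ncr1. This was not particular to it, since 8 were at 0 in alisertib 1. In vehicle 2 and combination 3, 8 were also at 0, but 1 read there was worth 2.45 and 3.62, against 0.791 in navitoclax 2. Zeros in those 2 libraries, with fewer reads for such genes, are thus not a like comparison. In navitoclax 3, combination 2 and alisertib 2, 0 were at 0. Prf1, encoding perforin, stood at 21.4 and 27.2 in navitoclax 3 and combination 2 and at 2.37 in navitoclax 2. By sum, the macrophage and monocyte markers followed another library order, with their highest sum, 17237, in combination 3 and more in alisertib 2 (13300) than in navitoclax 3 (8273). Abundant markers weigh most in such sums, and Lyz2 alone was 4368 in combination 3. By the median log2 deviation of the 15 markers, combination 2 was highest at 1.29. This deviation was 0.98 in alisertib 2, 0.75 in combination 3, 0.63 in navitoclax 3 and -1.20 in navitoclax 2. By group the 15 markers summed to 1622 to 3771 in vehicle, 5640 to 13300 with alisertib, 3527 to 8273 with navitoclax and 8050 to 17237 with both drugs, with 0 of 15 at 0 in navitoclax 2. Lyz2, encoding a lysozyme of myeloid cells, rose by 1.62 ± 0.26 on the log2 scale in the main effect of alisertib (adjusted p = 0.00595 in limma), a call that held in all 25 alternatives. Mrc1 and Ms4a7 also rose, by 1.61 (adjusted p = 0.0338) and 1.56 (adjusted p = 0.0367), and each of these calls was lost in 11 of 25 alternatives. Lyz2, Mrc1 and Ms4a7 were the 3 of 15 macrophage and monocyte markers that passed in this main effect, against 4.5% of all genes. Of the 15 estimates, 13 were above 0, and the lowest was -0.58. Of the tested markers of dendritic cells (3), T and NK cells (3), B cells (1), endothelium (6), fibroblasts (6), muscle (6), red cells (5) and melanocytes (8), 0 passed in any of the 8 comparisons by limma. T cells, macrophages and tumour cells can all express class I genes, and the part of each in the class I values was not tested.

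Interferon-induced genes outside antigen presentation were also highest in navitoclax 3. Of 23 such genes, 22 were highest in navitoclax 3. How many of all genes were highest in that library was not counted, and 9 of 14 constitutive proteasome core genes were highest there too. The 23 genes summed to 20528 normalized counts in navitoclax 3, 10342 in combination 2 and 2605 in navitoclax 2, with the lowest sum, 2421, in combination 3. Igtp, an interferon-induced GTPase gene, measured 1206 in navitoclax 3, 710.2 in combination 2 and 41.1 in navitoclax 2, with 47.9 to 260 elsewhere. Not every gene was high in combination 2. Cxcl10 measured 739 in navitoclax 3 but 248 in combination 2, within its vehicle range of 158 to 277. Its main effect of alisertib was -0.78 (adjusted p = 0.270 in limma). The median log2 deviation of the list was 2.41 in navitoclax 3 and 0.65 in combination 2. Of these genes, 0 of 23 passed the threshold in any arm against vehicle by limma, with medians of 0.38 with alisertib, 0.89 with navitoclax and 0.91 with both drugs. In combination 3, the median deviation of the list was -0.91 while that of the class I genes was 0.27. Ifng itself, the gene of interferon gamma, was at 0 or near it everywhere and highest in alisertib 2, at 3.06 normalized counts, where 3 reads are worth 2.29.

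Of the genes that carry the interferon signal, 17 of 19 were tested. Ifngr2, encoding the signalling chain of the interferon gamma receptor, measured 936, 823 and 908 normalized counts in vehicle, 1363, 1505 and 1386 with alisertib, 1008, 1005 and 1245 with navitoclax, and 1364, 1501 and 1484 with both drugs. The alisertib and combination libraries all lay above the vehicle and navitoclax libraries. In the main effect of alisertib 4.5% of all genes passed, and 11 of the 17 estimates of the list were above 0. Ifngr2 was the 1 gene of the 17 that passed, with a main effect of 0.55 ± 0.09 on the log2 scale (adjusted p = 0.00671 in limma). This call held in all 25 alternatives. Against vehicle it rose by 0.67 with alisertib (adjusted p = 0.0348) and by 0.70 with both drugs (adjusted p = 0.0169), calls lost in 11 and 4 of 26 alternatives, with adjusted p up to 0.177 and 0.147. These included leaving out any of the vehicle or alisertib libraries for the first, and vehicle 1 or combination 2 for the second. Irf1, an interferon-induced transcription factor, ranged from 508 to 1936, was highest in navitoclax 3 and did not pass in any arm.

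Among 12 genes of the class I enhanceosome and NF-kB, which bind class I promoters, 0 passed against vehicle in any arm by limma, with medians of -0.04, 0.07 and -0.09 for alisertib, navitoclax and both drugs. Rfx5, a subunit of the complex that binds the X box, lay between 606 and 780 in vehicle and between 825 and 922 with both drugs. Relb, of the NF-kB genes, lay between 322 and 392 in vehicle and between 248 and 281 with both drugs. In the main effect of alisertib Rfx5 and Relb did not pass (adjusted p = 0.238 and 0.133 in limma). Ciita, the class II transactivator related to Nlrc5, was 222 in navitoclax 3, 156 in combination 2 and 2.37 in navitoclax 2. The 14 genes of the constitutive proteasome core gave 0 calls in any arm, with medians of 0.12, 0.23 and -0.11, and the 7 genes of the proteasome activators and assembly factors gave 0, with medians of 0.14, 0.22 and 0.13. Psme1 and Psme2, the subunits of the interferon-inducible activator, were highest in navitoclax 3, at 2065 and 1854 normalized counts.

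Of 16 loading chaperones and peptide trimming enzymes, Hspa5 was called. Of all genes, 0.871% passed with alisertib and 2.54% with both drugs. Hspa5, encoding the endoplasmic reticulum chaperone BiP, measured 21780, 23324 and 27222 normalized counts in vehicle, 11066, 11113 and 12875 with alisertib, 14121, 15130 and 14759 with navitoclax, and 10797, 10226 and 11943 with both drugs. Every treated library lay below every vehicle library. It fell by 1.04 ± 0.13 on the log2 scale with alisertib (adjusted p = 0.00314 in limma) and by 1.13 ± 0.13 with both drugs (adjusted p = 0.00129). With navitoclax the log2 change was -0.71 ± 0.13 and did not pass (adjusted p = 0.137). The alisertib call held in all 26 alternatives and that of both drugs in 25, the exception being the fit of only the compared groups (adjusted p = 0.0586). Calr, which encodes the calreticulin of the loading complex, did not pass and lay between 16249 and 23771 in all 12 libraries.

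Of 16 other class I heavy chain genes in the table, 15 were highest in navitoclax 3 or combination 2. How often other genes peaked in these 2 libraries was not counted. H2-Q2, H2-M5 and H2-M2 peaked at 0.852, 2.55 and 5.96 normalized counts in combination 2, where 3 reads are worth 2.55. H2-T3 peaked at 2.38 in navitoclax 3, which is 3 reads there. Tests were possible for 12 of the 16, and 0 passed in any arm by limma. The medians were -0.37 with alisertib, -0.02 with navitoclax and 0.51 with both drugs, where all 12 estimates were above 0. The chain highest elsewhere was Cd1d1, a lipid-presenting chain, which was lowest in navitoclax 3 (13.5) and highest in alisertib 2 (40.5). Mr1, which presents vitamin B metabolites, was similar in navitoclax 2 (499) and navitoclax 3 (515). H2-Q7, a nonclassical heavy chain and one of the genes picked below for likeness to the members, measured 273, 505 and 538 in vehicle, 123, 546 and 146 with alisertib, 181, 33.2 and 2586 with navitoclax, and 460.3, 1653 and 539 with both drugs. H2-T22, a nonclassical chain recognised by some gamma delta T cells, was 3685 in navitoclax 3, 2702 in combination 2 and between 902 and 1391 in the other 10.

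The 8 genes whose pattern was most like the mean of the 10 class I genes were picked by Pearson's r over the 12 libraries, which share their treatments and depths. They were Gm4951 (r = 0.959), H2-Q7 (0.958), H2-Q5 (0.954), Gm11131 (0.948), Il2rb (0.948), Tnfrsf14 (0.945), Gm12250 (0.932) and H2-Q4 (0.932). The list holds 3 further class I heavy chain genes and Il2rb, which encodes a receptor chain of T and NK cells. Among the members themselves r with this mean, of which each is a part, was 0.980 for Psmb8, 0.934 to 0.955 for H2-K1, H2-D1, Nlrc5, Psmb9, Tap2 and Tap1, 0.815 for Tapbp, 0.710 for Psmb10 and 0.437 for B2m. The 3 genes with the lowest r were those whose highest library (Tapbp, Psmb10) or lowest library (B2m) was rich in ribosomal RNA.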

How the data were processed

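RNA was sequenced from 12 tumour libraries, 3 per treatment, after depletion of ribosomal RNA and with a directional kit, per the labels' protocols. No replicate number is given in the labels; numbers follow accession order. Whether the libraries of a group are separate mice is not stated, so the p-values describe the spread between samples, and that spread may be technical. The values in the deposited table are a normalized signal: in every library 100% of them were whole multiples of a smallest step (tolerance 0.001), the form that gene counts take when the authors scale each library by 1 factor. HISAT2 2.0.6, featureCounts, Subread 1.5.1 and DESeq2 are named in the submitters' processing notes, as are GRCm38.p4 and mm10, without a role. The strand setting and annotation release are not given in the sources used here. The column of navitoclax 3 and its title disagree in part of a name, and the match rests on the library code.

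Symbols, coordinates and exon lengths came from GENCODE M21, which matched 50376 of 50600 identifiers. The 16993 genes (of 29711 with a read) that reached a value of 10 in 3 or more libraries were fitted in limma 3.58.1 (R 4.3.3) as log2(value + 2). The model held a mean per group over 12 libraries, with trended and robust moderation, and 8 contrasts were taken. The scripts were tested on simulated data. Among the 26 alternatives were edgeR 4.0.16 and DESeq2 1.42.0, run on whole reads recovered from the steps. The 10 members and the 16 other lists were chosen with earlier results of these data known; 193 of the 195 listed genes were in the table. All members were described. Other listed genes were named by the smallest p in a drug's main effect, up to 4 per list, and genes of like pattern by r. Markers at 0 in navitoclax 2 were also named. Ciita, Ifng, Ptprc, Prf1, Cd1d1, Mr1, H2-Q2, H2-T3, H2-M2, H2-M5 and the fibroblast markers were named after their values were seen.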

Additional observations from a re-analysis of the deposited data

How the results depend on the processing

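With all alternatives, 0 of the 10 class I genes passed the threshold in each of the 8 comparisons, except that 1 gene, Tap1, passed without navitoclax replicate 3 with both drugs against vehicle, with both drugs against navitoclax and for the main effect of alisertib. Leaving out each library in turn thus gave 0 to 1 called gene in these 3 comparisons. Without navitoclax 3 and combination 2, chosen after seeing the data, 1 gene, again Tap1, passed in the last 2 of them. The log2 change of B2m with both drugs, 0.58, turned to -0.35 without those 2 libraries and ran from -0.36 to 1.77 as single libraries were left out. That of H2-K1 with navitoclax, -0.39, turned to 0.18 with edgeR and TMM factors, 0.17 with edgeR and RLE factors or DESeq2 and 0.27 with voom, and ran from -1.29 to 0.28 as single libraries were left out. The causes were not tested. The median log2 change of the 10 genes ran from 0.54 to 1.14 with both drugs, from -0.36 to 0.02 with alisertib and from -0.76 to 0.90 with navitoclax. It ran from -0.03 to 0.68 for the main effect of alisertib, from -0.12 to 0.80 for that of navitoclax and from 0.17 to 1.73 for the interaction. No paired analysis was possible because the labels number no replicates, so the numbers used here pair nothing. With 3 libraries per group, the 95% intervals with both drugs against vehicle covered changes from under 0.5-fold to over 2-fold for B2m, H2-K1, Psmb8 and Psmb9.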
